A study of Mus musculus with 36 samples.

Results

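The 10 genes described here encode 7 extracellular metalloproteinases, Mmp2, Mmp3, Mmp11, Mmp13, Mmp14, Mmp19 and Adamts1, and 3 tissue inhibitors of metalloproteinases, Timp1, Timp2 and Timp3. They were taken by symbol from a table of 46078 mouse genes and followed in 36 BRB-seq libraries, a pooled assay in which reads come from the 3′ end of polyadenylated RNA. All cells were mouse astrocytes of genotype Nf1-/- DNp53, meaning that they lacked Nf1 and had been transformed with a dominant-negative form of p53, and all were cultured with serum and without any further treatment. The labels name litters as lots 6, 7, 8, 11 and 12, and each had given a female and a male line, so that there were 5 female and 5 male lines. Each line of lots 6 and 12 had 3 libraries and each line of lots 7, 8 and 11 had 4. No untransformed astrocytes or cells with Nf1 were among these groups, the age of the donors is not given, and a difference between the sexes within a lot is a difference between 2 single lines. Whether libraries of 1 line came from separate cultures is not given. P-values within lots, for differences among lots and among lines of 1 sex therefore measure only the spread between these libraries, which may be technical.

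Matrix metalloproteinases are zinc-dependent enzymes that cut collagens, proteoglycans and other proteins of the extracellular matrix. They are made as inactive precursors and switched on by removal of a propeptide, and the Timp proteins block them by binding the active site. Mmp14, which sits in the cell membrane, activates the precursor of Mmp2 in a complex that also needs Timp2. Reactive astrocytes and gliomas are known for secreting several of these enzymes together with Timp1.

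Library totals ranged from 4358098 to 7562901 counts. Levels are given as CPM, counts scaled to the library total, and a floor of 3 counts corresponded to 0.397 to 0.688 CPM; depth therefore limits what can be said of Mmp3, Mmp13 and Mmp19 in most lines. Replicate 4 stood apart in lots 7, 8 and 11: protein-coding mitochondrial transcripts made up 0.251 to 0.349% of these 6 libraries, against 0.534 to 0.770% of the other libraries of these lots, and results that change without replicate 4 are given both ways. Of 12 astrocyte markers, 5 averaged over 1 CPM, and the summed level of the list was 117 to 215 CPM in female lines and 156 to 224 CPM in male lines. Most of this sum was Gja1, which averaged 143 CPM over the lines. Sox9 averaged 12.2 CPM, Glul 11.1 CPM, Slc1a3 2.89 CPM and Aldoc 1.19 CPM. Gfap, Aqp4, S100b, Slc1a2, Fabp7 and Aldh1l1 averaged 0.13 to 0.85 CPM, and Gjb6 had no count. Of 10 fibroblast markers, 7 averaged over 1 CPM, with sums of 92.1 to 515 CPM in female lines and 64.4 to 830 CPM in male lines. None of 6 endothelial markers and 2 of 12 microglia and macrophage markers averaged over 1 CPM, and 5 of those 12 had no count in any of the 36 libraries. In bulk libraries, fewer cells of a type and less RNA per cell cannot be told apart.

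Mmp3 gave the widest differences among the 10 genes, and its neighbours Mmp10 and Mmp13 lie in the same cluster of metalloproteinase genes on chromosome 9. The 250 bases upstream of the annotated start of each of these 3 genes are therefore shown, from RefSeq on GRCm38.p6, plus strand. Capitals mark matches to the AP-1 recognition motif TGANTCA or to the related TGANTAA, searched on both strands.
Mmp3 (chr9:7445572-7445821): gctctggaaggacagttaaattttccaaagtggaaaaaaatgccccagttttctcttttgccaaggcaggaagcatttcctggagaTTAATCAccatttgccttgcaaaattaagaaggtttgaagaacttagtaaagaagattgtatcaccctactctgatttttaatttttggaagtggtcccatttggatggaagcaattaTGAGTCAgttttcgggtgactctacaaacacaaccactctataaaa
Mmp10 (chr9:7502092-7502341): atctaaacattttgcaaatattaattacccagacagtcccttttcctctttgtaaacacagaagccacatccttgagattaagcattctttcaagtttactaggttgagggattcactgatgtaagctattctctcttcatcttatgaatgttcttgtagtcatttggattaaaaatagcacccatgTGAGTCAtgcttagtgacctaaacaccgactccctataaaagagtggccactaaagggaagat
Mmp13 (chr9:7272264-7272513): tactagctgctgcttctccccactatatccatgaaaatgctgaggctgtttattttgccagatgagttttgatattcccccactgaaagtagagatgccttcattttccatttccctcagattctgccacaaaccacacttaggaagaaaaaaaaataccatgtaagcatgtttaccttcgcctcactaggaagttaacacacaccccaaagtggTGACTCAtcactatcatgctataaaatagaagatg
All 3 windows held TGANTCA, in which the first base lay at −46 for Mmp3, −63 for Mmp10 and −35 for Mmp13, counted from the start. The second match in Mmp3, at −164, was to TGANTAA on the minus strand. Of 32851 promoters with a window of this length, 6.75% held TGANTCA and 9.38% held TGANTAA. Of the 10 genes, 8 were matched to the promoter table, and 2 of these 8, Mmp3 and Mmp13, held TGANTCA. The windows of Mmp11, Mmp14, Adamts1, Timp1, Timp2 and Timp3 had neither motif. Outside the list only Mmp10 was searched, and it was picked after its values were seen, so the cluster as a whole was not described.

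Mmp3, a stromelysin that cuts proteoglycans and activates other metalloproteinases (chr9:7445822-7455975, GRCm38, plus strand), was high in the lot 6 female line and close to silent in its male partner. Its levels were 23.1, 51.3 and 54.3 CPM in the lot 6 female libraries, against 0, 0.313 and 0.145 CPM in the lot 6 male libraries. No male library reached the lowest female one, and the male libraries held 3 counts in all, against 853 in the female ones. The ratio of these sums, relative to library totals, was 270, with a counting interval of 92.1 to 1312 that covers counting error only. The difference passed the threshold (adjusted p = 1.36e-06, edgeR quasi-likelihood test with Benjamini-Hochberg adjustment), with a fitted log2 fold change of 7.72, or 8.60 without male replicate 2, which held 2 of the 3 male counts.

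In lot 7, Mmp3 reached 10.2, 9.06, 23.1 and 1.26 CPM in the female libraries, against 0.448, 0.593, 2.05 and 0 CPM in the male libraries. The female replicate 4 was the low one, and its value lay inside the male range. The log2 fold change of female over male was 3.74 ± 0.79 (SE, n = 4 each, adjusted p = 0.00103), and was 3.69 with adjusted p = 0.00143 without replicate 4. It was 3.08 without female replicate 3 and 4.84 without male replicate 3, the highest library of each line, and passed both times. In lot 12 Mmp3 had 0.459, 7.85 and 1.52 CPM in the female libraries, against 0, 0 and 1.16 CPM in the male libraries. These groups overlapped, and female replicate 2 alone was well above the floor. The lot 12 difference, 2.98 ± 1.04 (log2, SE, n = 3 each), had adjusted p = 0.111, became 2.87 with adjusted p = 0.0481 when replicate number was added as a block, and 7.25 with adjusted p = 0.0254 without male replicate 3, the only male library with a count. Over 11 alternatives its adjusted p ran between 0.000798 and 0.721. In lots 8 and 11, Mmp3 was at or below 2.87 CPM in every library, with means in lot 8 of 0.111 CPM (female) and 0.47 CPM (male) and in lot 11 of 1.10 CPM (female) and 1.84 CPM (male).

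Mmp13, a collagenase (chr9:7272514-7283331, plus strand), had 16 counts in the whole series, all in female lines. They fell in 1 library each of the female lines of lots 6, 7 and 12, each time replicate 3, at 0.305, 1.34 and 1.14 CPM, from 2, 8 and 6 counts. Every other female library and all male libraries had no count, and too few counts were present for a test. Mmp10, a second stromelysin and no member of the list, had line sums of 56 counts for female and 5 for male in lot 6, and of 118 for female and 22 for male in lot 7. Its log2 fold change was 3.09 ± 1.17 in lot 6 (adjusted p = 0.0452) and 2.59 ± 0.92 in lot 7 (adjusted p = 0.0631), so that it passed the threshold of 0.05 in lot 6 but not in lot 7.

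**Figure D1:**
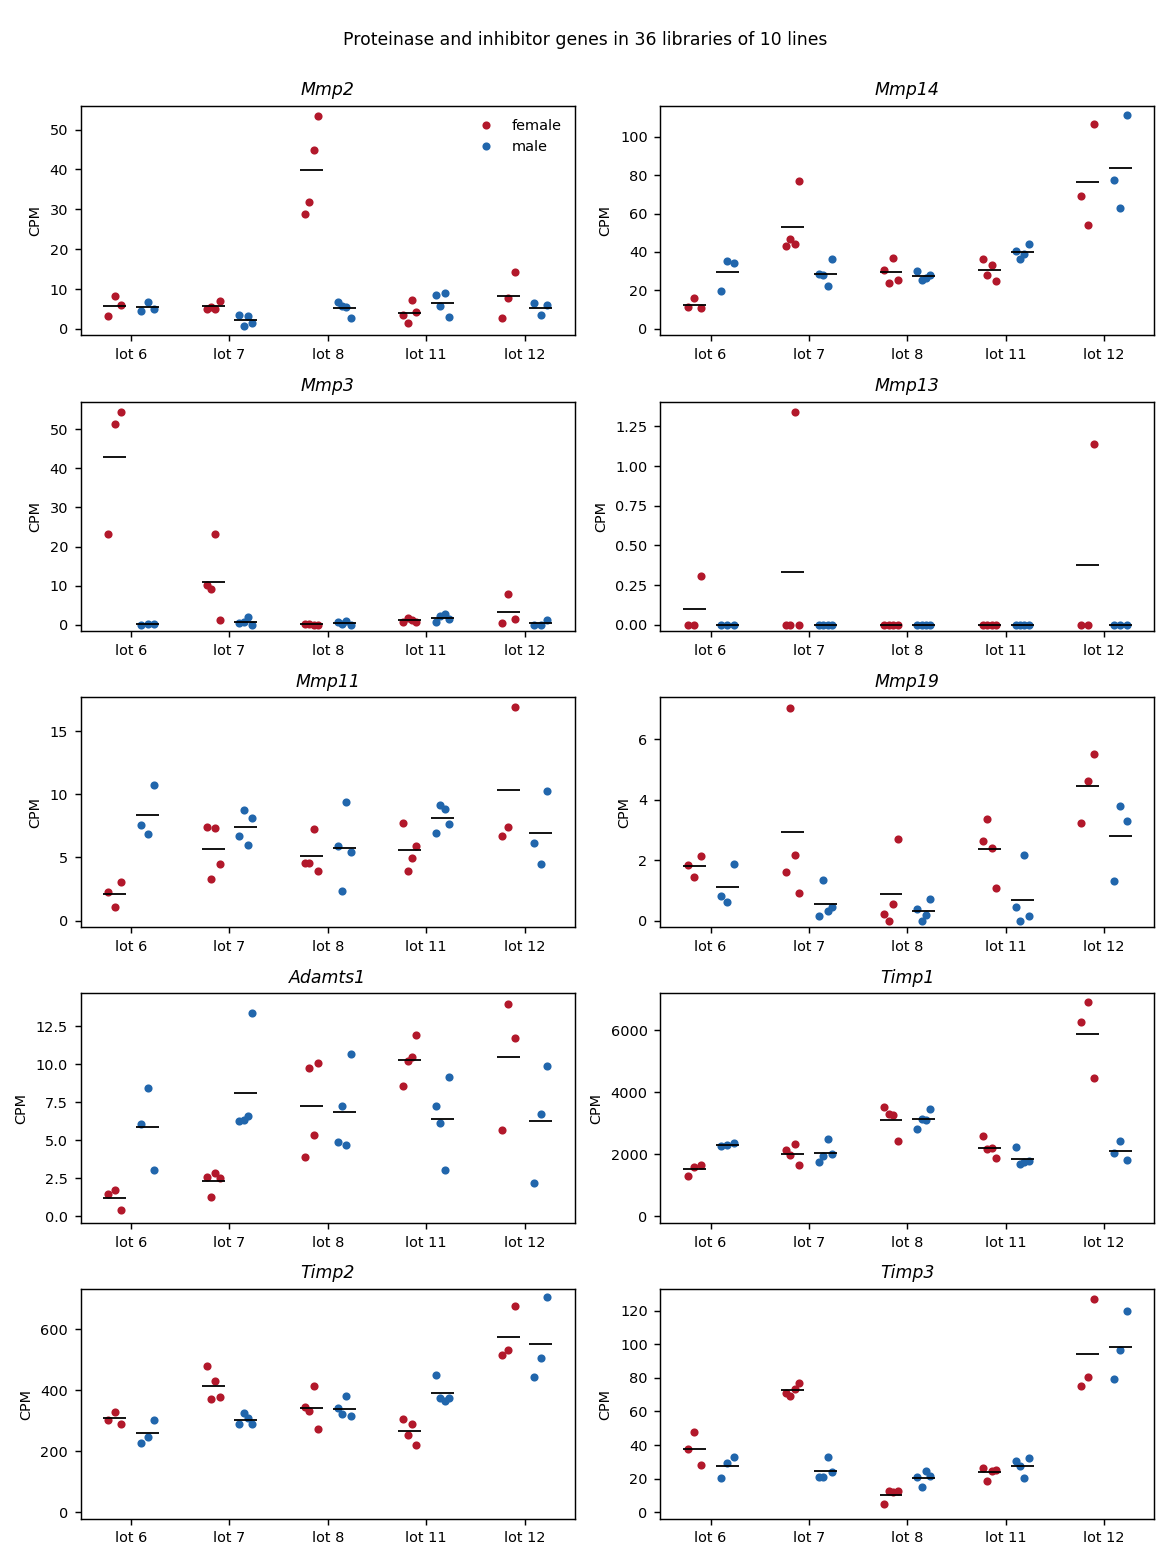
CPM of the 10 genes in each of 36 libraries, 1 panel per gene with its own vertical scale in CPM; points are libraries, horizontal lines are line means, and within each lot the female line stands left of the male line. Mmp3 is high in the lot 6 and lot 7 female lines, Mmp2 in the lot 8 female line and Timp1 in the lot 12 female line, while Mmp14, Timp2 and Timp3 are high in both lines of lot 12.

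Mmp2, the gelatinase that Mmp14 activates (chr8:92827291-92853420, plus strand), stood out in 1 line. It had 28.9, 31.8, 44.9 and 53.3 CPM in the lot 8 female libraries, against 6.67, 5.85, 5.42 and 2.80 CPM in the lot 8 male libraries. Female and male libraries did not overlap, and the other 9 line means lay between 2.20 and 8.22 CPM. The log2 fold change in lot 8 was 2.84 ± 0.44 (SE, n = 4 each, adjusted p = 1.37e-05), and 2.46 with adjusted p = 0.000927 without replicate 4. In lot 7, Mmp2 was at 5.00, 5.55, 5.02 and 7.01 CPM in the female libraries and at 3.43, 0.593, 3.31 and 1.45 CPM in the male libraries. These groups did not overlap either, but the difference of 1.28 ± 0.47 did not pass (adjusted p = 0.0757, range 0.0173 to 0.294 over 15 alternatives). It passed in DESeq2 (adjusted p = 0.0438) and with the replicate block (0.0494). No difference passed in lots 6, 11 and 12, at −0.13, −0.73 and 0.55.

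Mmp14, the membrane-bound activator of Mmp2 (chr14:54431612-54445364, plus strand), differed in opposite directions in lots 6 and 7. In lot 6 it had 11.2, 15.9 and 10.7 CPM in the female libraries, against 19.8, 35.3 and 34.3 CPM in the male libraries, a log2 fold change of −1.47 ± 0.24 (SE, n = 3 each, adjusted p = 1.26e-05). The groups did not overlap. The median log2 fold change of the 158 better-expressed genes of chromosome 14 (log2 CPM averaging 4 or more) was −0.83 in the same comparison, against −0.06 for all 5209 genes at that level, and its part in the fall of Mmp14 was not tested.

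In lot 7, Mmp14 had 43.4, 47.0, 44.0 and 77.0 CPM in the female libraries, against 28.6, 27.9, 22.2 and 36.4 CPM in the male libraries. No overlap was seen, and female replicate 4 was far above its 3 fellows. The log2 fold change was 0.81 ± 0.20 (SE, n = 4 each, adjusted p = 0.00529). It was 0.58 with adjusted p = 0.0633 without that library and 0.70 with adjusted p = 0.0434 without replicate 4 of both lines, and its adjusted p ran between 0.000379 and 0.0633 over 15 alternatives. The lot 7 median of chromosome 14 was 0.09. Mmp14 was at 69.2, 54.0 and 106 CPM in the lot 12 female libraries and at 77.5, 62.7 and 111 CPM in the lot 12 male libraries, above every library of the other lots except lot 7 female replicate 4. The sexes did not differ past the threshold there (−0.20 ± 0.22, adjusted p = 0.757). The differences in lots 8 and 11, 0.02 and −0.42, did not pass.

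Mmp11, a stromelysin-type enzyme with weak activity on matrix proteins (chr10:75923222-75936496, minus strand), was lower in the lot 6 female line. Its libraries had 2.25, 1.11 and 3.05 CPM there, against 7.57, 6.88 and 10.7 CPM in the lot 6 male line, without overlap. The log2 fold change was −2.17 ± 0.43 (SE, n = 3 each, adjusted p = 0.000192). Chromosome 10 genes had a median of −0.64 in this comparison (257 genes), whose part in the difference was not tested. In the other lots Mmp11 ran between −0.56 and 0.49 (log2 fold change), and none passed. Mmp11 shares 155 exon bases with Chchd10 on the other strand, and whether the counting used strand is not stated; Chchd10 itself averaged 0.906 CPM.

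Adamts1, a secreted proteinase that cuts the proteoglycans aggrecan and versican (chr16:85793827-85803113, minus strand), was lower in the female lines of lots 6 and 7. In lot 6 it had 1.45, 1.75 and 0.458 CPM in the female libraries, against 6.09, 8.44 and 3.05 CPM in the male libraries. In lot 7 it had 2.60, 1.29, 2.85 and 2.52 CPM in the female libraries, against 6.27, 6.38, 6.61 and 13.4 CPM in the male libraries. Neither pair of lines overlapped, and male replicate 4 of lot 7 was the high one. The log2 fold changes were −2.48 ± 0.53 in lot 6 (SE, n = 3 each, adjusted p = 0.000452) and −1.86 ± 0.44 in lot 7 (SE, n = 4 each, adjusted p = 0.00312). Without replicate 4, the lot 7 value was −1.58 and missed the threshold (adjusted p = 0.0507, range 0.000327 to 0.0507 over 15 alternatives). Lots 11 and 12 had values of 0.65 and 0.68, neither past the threshold, and lot 8 a value next to 0.

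Mmp19, a broadly acting matrix enzyme (chr10:128790910-128800824, plus strand), was low, at 0 to 7.03 CPM over the 36 libraries. In each of 5 lots the female line had the higher mean. Lot 6 had 1.81 CPM (female) and 1.11 CPM (male), lot 7 had 2.93 CPM (female) and 0.559 CPM (male), and lot 8 had 0.872 CPM (female) and 0.318 CPM (male). Lot 11 had 2.37 CPM (female) and 0.692 CPM (male), and lot 12 had 4.44 CPM (female) and 2.80 CPM (male). Libraries of both sexes overlapped in every lot, and no lot passed the threshold. The largest difference, 2.29 ± 0.87 in lot 7 (SE, n = 4 each), had adjusted p = 0.0885, with a range of 0.0458 in DESeq2 to 0.409 over 14 alternatives. Mmp19 shares 789 exon bases with Tmem198b on the other strand, a gene at 0.545 CPM.

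Timp1, a secreted inhibitor and by far the most counted gene of the list (chrX:20870166-20874735, plus strand), moved in opposite directions in lots 12 and 6. The lot 12 female libraries had 6266, 6910 and 4448 CPM, against 2053, 2443 and 1823 CPM in the lot 12 male libraries, which gave a log2 fold change of 1.41 ± 0.16 (SE, n = 3 each, adjusted p = 1.96e-07). In lot 6 the female libraries had 1306, 1592 and 1645 CPM, against 2260, 2288 and 2363 CPM in the male libraries, a log2 fold change of −0.83 ± 0.16 (SE, n = 3 each, adjusted p = 0.000131). All female libraries lay above all male ones in lot 12 and below them in lot 6. The X chromosome genes had medians of 0.06 in lot 12 and −0.02 in lot 6. In lots 7, 8 and 11 Timp1 differed by −0.09, −0.08 and 0.22, none past the threshold. Ordered by line mean, the lot 12 female line led with 5875 ± 1276 CPM (SD, n = 3), the lot 8 male and female lines followed with 3134 ± 269 and 3125 ± 478 CPM (SD, n = 4 each) and did not differ beyond their spread, and the lot 6 female line came last with 1514 ± 183 CPM (SD, n = 3). The 6 lines between these, at 1858 to 2304 CPM, overlapped each with the next.

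Timp2, which blocks Mmp2 but also takes part in its activation by Mmp14 (chr11:118301069-118355740, minus strand), was the steadiest of the 10 genes, with line means from 259 to 575 CPM. The lot 7 female libraries had 480, 371, 430 and 379 CPM, against 289, 326, 308 and 288 CPM in the male libraries, and the log2 fold change was 0.39 ± 0.12 (SE, n = 4 each, adjusted p = 0.0263). The groups did not overlap, but the call was lost without female replicate 1 (0.30, adjusted p = 0.131), female replicate 3 (0.0550), male replicate 1 (0.0575) or male replicate 4 (0.0811), within a range of 0.00185 to 0.131 over 15 alternatives. In lot 11 the order was turned: 305, 254, 289 and 220 CPM in the female libraries, against 449, 376, 365 and 373 CPM in the male libraries. These did not overlap, and the log2 fold change was −0.58 ± 0.12 (SE, n = 4 each, adjusted p = 0.00143). In lots 6, 8 and 12 the differences of 0.03, −0.08 and 0.00 did not pass.

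Timp3, which stays bound to the matrix and also inhibits Adam and Adamts proteinases (chr10:86300372-86349506, plus strand), rose in the lot 7 female line and fell in the lot 8 female line. Its levels in lot 7 were 70.9, 69.0, 73.3 and 76.8 CPM in the female libraries, against 21.3, 21.1, 32.9 and 24.2 CPM in the male libraries, a log2 fold change of 1.48 ± 0.20 (SE, n = 4 each, adjusted p = 1.18e-06). In lot 8 they were 5.05, 12.8, 12.1 and 12.4 CPM in the female libraries, against 21.0, 15.1, 24.7 and 21.4 CPM in the male libraries, a log2 fold change of −1.03 ± 0.22 (SE, n = 4 each, adjusted p = 0.00128). The groups did not overlap in either lot. In lot 12 both lines were high, at 75.4, 80.8 and 127 CPM in the female libraries and 79.3, 96.6 and 120 CPM in the male libraries, with no difference past the threshold (−0.14 ± 0.22). Fibroblast markers, which other mesenchymal cells share, summed to 121 CPM in the lot 7 female and 64.4 CPM in the lot 7 male line. Lot 8 had sums of 515 CPM (female) and 390 CPM (male), and lot 12 of 355 CPM (female) and 830 CPM (male). The sums of lots 8 and 12 followed Col1a2, at 494 CPM (female) and 289 CPM (male) in lot 8 and 49.9 CPM (female) and 613.5 CPM (male) in lot 12. In lot 7, Col1a2 was at 10.23 CPM (female) and 12.05 CPM (male), and Col1a1 at 60.96 CPM (female) and 20.46 CPM (male). The list had no common direction. Of 10 markers, 4 had the higher level in the female line of lot 7 and 5 in the male line. In lot 8, 4 were higher in the female line and 4 in the male line, and in lot 12, 6 and 3. Without Col1a1 and Col1a2 the lot 7 sums were 49.7 CPM (female) and 31.9 CPM (male). Those of lot 8 were 13.1 CPM (female) and 26.1 CPM (male), and those of lot 12 were 96.0 CPM (female) and 93.2 CPM (male). Their part in the levels of Timp3, of Mmp2 in lot 8 and of Timp1 in lot 12 was not tested.

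**Figure D2:**
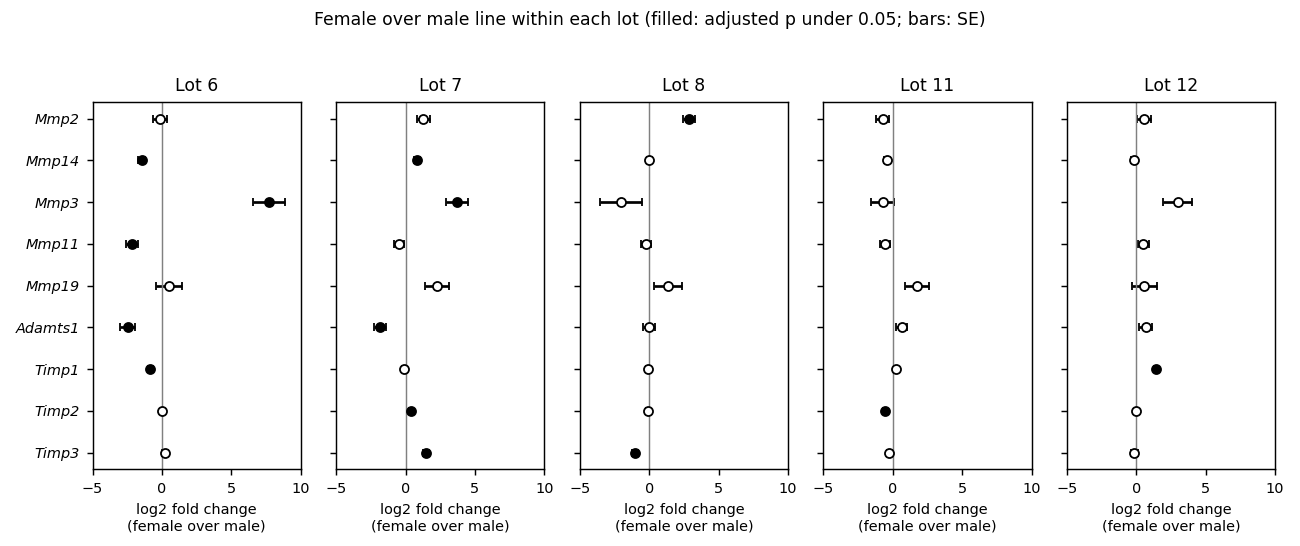
Log2 fold change of the female over the male line in each lot, with its SE as bars, for the 9 genes tested (edgeR quasi-likelihood fit of 36 libraries); filled points have an adjusted p under 0.05. Timp3, Timp2, Timp1 and Mmp14 each have filled points on both sides of 0, while the filled points of Mmp3 and Mmp2 lie above 0 and those of Mmp11 and Adamts1 below it.

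Counted by lot, 9 of the 10 genes had enough counts to be tested, since Mmp13 did not pass the filter on low values. In lot 6, 5 of 9 passed, 1 higher (Mmp3) and 4 lower (Mmp11, Mmp14, Adamts1, Timp1) in the female line, where 27.6% of all genes tested passed, 13.5% higher and 14% lower. Fibroblast markers summed to 92.1 CPM in the lot 6 female line and 652 CPM in its male partner, a sum carried by the collagen genes Col1a1 (21.6 CPM female, 188 CPM male) and Col1a2 (25.6 CPM female, 439.5 CPM male). Of the 10 markers, 5 had the higher level in the female line and 4 in the male line, and without these collagen genes the sums were 44.9 CPM (female) and 24.8 CPM (male). Their part in the 4 lower values was not tested. In lot 7, 5 of 9 passed, 4 higher (Mmp3, Mmp14, Timp2, Timp3) and 1 lower (Adamts1), where 10.8% of all genes passed, 5.41% higher and 5.42% lower. Lot 8 had 2 of 9, Mmp2 higher and Timp3 lower, where 11.4% of all genes passed, 6.41% higher and 4.99% lower. Lot 11 had 1 of 9, Timp2, lower in the female line, at a background of 4.33% (1.52% higher, 2.81% lower). Lot 12 had 1 of 9, Timp1, higher in the female line, at a background of 3.8% (1.74% higher, 2.06% lower). This fit left out the pairing by replicate number, seen most clearly in lot 12, and with the replicate block Mmp3 passed there too (edgeR adjusted p = 0.0481). For the 9 genes the median log2 fold change was −0.13 in lot 6, beside 0.06 over all genes. For lot 7 it was 0.81 beside 0.01, for lot 8 −0.08 beside 0.00, for lot 11 −0.42 beside −0.01, and for lot 12 0.55 beside 0.01. With library totals as the only scaling, the lot 6 median of all genes was 0.29 and the share of calls that were higher in the female line was 68.9%, against 49.0% with TMM scaling, and the 9 genes gave the same number of calls in each lot.

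Across the 5 lots, none of the 9 genes differed between female and male lines in the edgeR fit of 10 line sums with lot as a block, where 0% of 12010 genes passed and 841 had an unadjusted p under 0.05. One of the 9, Mmp19, had such an unadjusted p (0.0136, adjusted p = 0.695), with a log2 fold change of 1.30 ± 0.41 (SE, n = 5 lots) and a higher female value in 5 of 5 lots. Mmp3 had 2.46 ± 1.35 (adjusted p = 0.703), with a higher female value in 3 of 5 lots. DESeq2 called 60 genes and none of the 9. Limma voom on the 36 libraries with line as a random block called 491 genes and 1 of the 9, Mmp3 (3.46, adjusted p = 0.0135, range 0.0135 to 0.975 over 11 alternatives). The other 7 genes lay between −0.57 and 0.75.

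Whether the lots differed in the female over male difference was tested in 1 fit of the 36 libraries with 4 degrees of freedom. The test passed for 8 of the 9 genes, against a background of 29.9% of all genes. With 1 line per sex and lot, its p-values and those among lines measure only the spread between libraries of a line. Differences between litters and between single lines cannot be told apart there. The adjusted p was 2.06e-08 for Timp1, 3.74e-07 for Timp3, 1.36e-05 for Mmp14, 3.51e-05 for Mmp3, 0.000176 for Adamts1, 0.000212 for Mmp2, 0.000549 for Timp2 and 0.00902 for Mmp11, and Mmp19 did not pass (0.686). Among the 5 female lines the same 8 genes differed, against a background of 42% of all genes. Mmp19 did not pass there (adjusted p = 0.269), but did without replicate 4 of lots 7, 8 and 11 (0.0318, range 0.0318 to 0.446 over 24 alternatives). Among the 5 male lines 4 of 9 differed, Mmp14, Timp1, Timp2 and Timp3, against a background of 30.7%; whether female lines varied more than male lines was not tested. The male lines of Adamts1 lay within 5.86 to 8.15 CPM and those of Mmp11 within 5.75 to 8.40 CPM. The female lines covered 1.22 to 10.5 CPM for Adamts1 and 2.14 to 10.3 CPM for Mmp11. For other genes the SD over 5 lines was close between the sexes. It was 24.7 CPM (female) and 23.9 CPM (male) for Mmp14, 121 and 113 CPM for Timp2, and 34.8 and 33.0 CPM for Timp3. Mmp2, Mmp3, Mmp19 and Timp1 had the larger SD in female lines.

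Over the 10 line means, Mmp14, Timp2 and Timp3, the genes with high levels in both lot 12 lines, followed each other. They were grouped by their lot 12 levels, a choice that itself favours positive values. Mmp14 and Timp3 had an r of 0.65 (rho 0.61), and 0.20 without the lot 12 lines. Pearson's r of log2 CPM was 0.80 for Mmp14 and Timp2 (Spearman's rho 0.68) and 0.73 for Timp2 and Timp3 (rho 0.62), and without the lot 12 lines these were 0.49 and 0.31. Mmp19 and Timp3 had 0.77 (rho 0.72), and 0.82 without the lot 11 and lot 8 male lines. Mmp11 with Adamts1 had 0.76 and Mmp11 with Mmp14 had 0.71, but without the lot 12 and lot 6 female lines 0.06 and 0.07. Over all 36 pairs of the 9 genes the median r was 0.17, with 24 pairs above 0 and 5 above 0.7. These are descriptions without a test, since lines of a lot share a litter and all libraries share a pool.

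**Figure D3:**
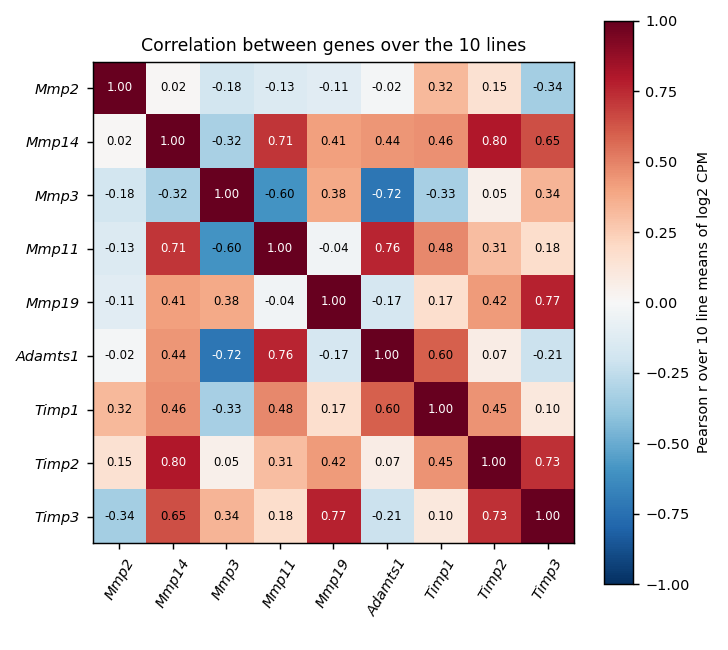
Pearson correlation of line-mean log2 CPM over 10 lines for each pair of 9 genes (Mmp13 left out), on a colour scale between −1 and 1. Mmp14, Timp2 and Timp3 form a block of positive values (0.65 to 0.80), which are 0.20 to 0.49 without the lot 12 lines. The median over all pairs is 0.17.

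The 3 genes most like each of the 4 members that averaged a log2 CPM of at least 3 were looked up among 6305 genes. Mmp14 was most like Arf4 (r = 0.95), Pla2g16 (0.93) and Chd8 (0.92), of which Arf4 and Chd8 lie on chromosome 14 as Mmp14 does. Timp1 was most like Wars (0.89), Xpo5 (0.88) and Usp16 (0.86), and Timp2 was most like Rrbp1 (0.95), Fkbp8 (0.95) and Rabep2 (0.93). Timp3 was most like Snap47 (0.97), Pdgfrb (0.96) and Ccn4 (0.95). Spearman's rho of these pairs ran from 0.58 (Timp1 and Usp16) to 0.96 (Timp3 and Pdgfrb). Each value is among the highest of 6305 over only 10 lines, and whether it exceeds what such a choice gives by chance was not tested.

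Other genes of matrix proteolysis were counted from 4 lists. Of 17 other Mmp genes only 5 had enough counts, of 25 other Adamts and Adam genes 15, of 19 activators, inhibitors and clearance receptors 15, and of 13 AP-1, ETS and Runx regulators 13. None passed across lots. In lot 6, 2 of 5 other Mmp genes passed, Mmp10 higher and Mmp23 lower in the female line, 4 of 15 Adamts and Adam genes passed, all higher, and 5 activators and inhibitors were higher and 1 lower, where 27.6% of all genes passed. Plat, the tissue plasminogen activator, averaged 38.5 CPM in the lot 6 female line and 5.86 CPM in its male partner (2.48 ± 0.39, adjusted p = 4.75e-06). Adam9, a membrane-bound sheddase, averaged 32.6 CPM in the female and 10.8 CPM in the male line (1.37 ± 0.24, adjusted p = 2.55e-05). Thbs1, a matricellular protein that binds Mmp2, averaged 324 CPM (female) and 107 CPM (male) in lot 6 (adjusted p = 3.73e-05), and Cd44, a hyaluronan receptor, averaged 227 CPM (female) and 114 CPM (male) there (adjusted p = 3.93e-05).

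In lot 7, 4 of 15 activators and inhibitors were higher and none lower in the female line, where 10.8% of all genes passed, 5.41% higher. They included Thbs1, at 494 CPM (female) and 240 CPM (male), and Bmp1, a procollagen proteinase, at 44.1 CPM (female) and 18.3 CPM (male). Serpine2, an inhibitor of serine proteinases, did not keep 1 direction over the lots. It was lower in the female line of lot 11 (0.463 CPM, against 3.87 CPM in the male line). In lot 12 it was lower too (2.12 CPM, against 10.2 CPM in the male line). In lot 6 it was higher, at 1.43 CPM (female) and 0.205 CPM (male), the latter below the floor (2.43 ± 0.915, edgeR adjusted p = 0.0441). The differences in lots 7 and 8, 0.78 and 1.175, did not pass. In lot 11, where 4.33% of all genes passed, 1 of 5 other Mmp genes passed, Mmp23, lower in the female line. Of 15 Adamts and Adam genes there, 1 was higher, Adamts9, and 1 lower, Adam10. In lot 8, where 11.4% of all genes passed, 1 of these 15 was higher in the female line and 1 lower. The higher one was Adam12, another membrane-bound member, at 10.6 CPM (female) and 3.04 CPM (male). The lower one was Adam15, at 12.6 CPM (female) and 18.6 CPM (male). Lot 12 had 2 of 15 activators and inhibitors higher and 2 lower, where 3.8% of all genes passed.

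Of the 13 AP-1, ETS and Runx regulators, 6 passed in lot 6, 2 higher in the female line (Fos, Junb) and 4 lower (Fosb, Jun, Fosl1, Etv4), the members of this count being named after their values were seen, where 27.6% of all genes passed, 13.5% higher and 14% lower. Fos averaged 8.64 CPM in the lot 6 female line and had no count in its male partner. In lot 7, where 10.8% of all genes passed, Junb was higher and Jun and Etv4 were lower, at 9.45 CPM in the female and 22.5 CPM in the male line for Etv4. In lot 8, at a background of 11.4%, 2 were higher, with Junb at 38.8 CPM (female) and 22.8 CPM (male), and 1 was lower, Ets2, at 17.7 CPM (female) and 32.0 CPM (male). Lot 11, at a background of 4.33%, had 1 higher, Fosl2, at 36 CPM (female) and 19.5 CPM (male), and lot 12 had none.

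**Figure D4:**
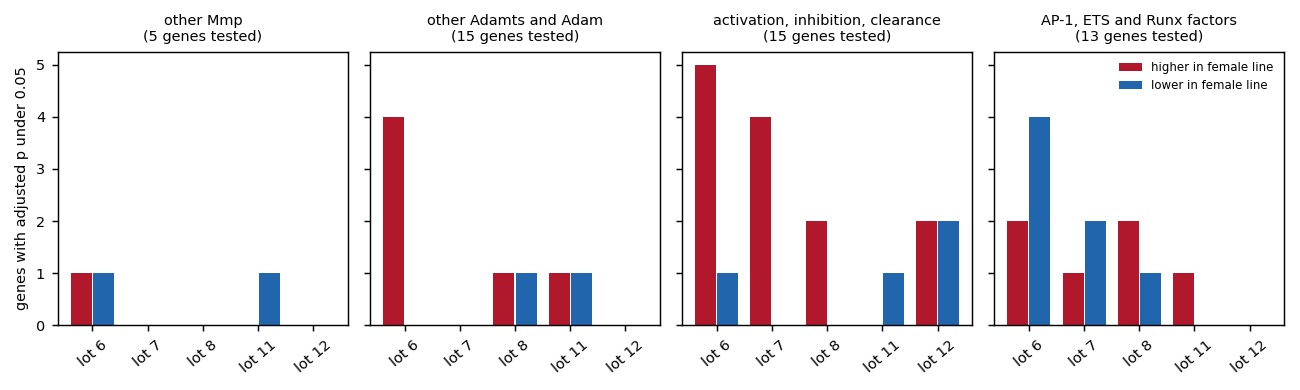
Number of genes with an adjusted p under 0.05 in each of 4 lists and each lot, with separate bars for genes that were higher and genes that were lower in female cells. Lot 6, where 27.6% of all genes passed, has the most such genes in each list.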

How the data were processed

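The authors deposited raw counts per Ensembl gene, per the labels, and the values were whole. STAR 2.7.6a, Subread 2.0.2, cutadapt 2.10 and GRCm38 are named in the submitters' processing notes. Whether molecular identifiers were collapsed, and whether counting used strand, is not given in the sources used here, and intervals and floors therefore cover only counting error. Gene positions came from GENCODE on GRCm38.

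The 36 libraries were fitted in edgeR 4.0.16 (R 4.3.3) with 1 coefficient per line, its expression filter, TMM scaling and the quasi-likelihood test, and the 10 line sums with lot and sex. Benjamini-Hochberg adjustment ran over all genes tested, with a threshold of 0.05. Fold changes are female over male, and CPM use library totals. Line-mean log2 CPM had 0.5 counts added. Alternatives were RLE scaling, library totals, no filter, a replicate block, DESeq2 1.42.0, limma 3.58.1 voom, no lot block, each lot's libraries alone, and omission of single libraries or lots; leaving out replicate 4 was added after seeing the data. The scripts were tested on simulated data.

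The 10 genes and the other lists were chosen with earlier results of these data known. From the other lists, the rule named up to 4 genes per comparison by p with at least 1 CPM in a line; Mmp10, Fos and the few genes behind small counts were named after their values were seen. One gene that this rule took is not reported here. Replicate numbers appeared to pair the samples most clearly in lot 12, judged from the data. Residuals of libraries with the same number correlated at 0.392 to 0.529 in its 3 pairs, while in lots 6, 7, 8 and 11 at least 1 pair was under 0.1. In lot 11 the 4 same-numbered pairs, at 0.0955 to 0.253, lay above all 12 unlike pairs, which reached 0.0806. In lot 7, 3 of 4 same-numbered pairs were over 0.1, against 0 of 12 unlike pairs. Lot 8 had 1 of 4 against 0 of 12, and lot 6 had 1 of 3 against 2 of 6. The main fits used no pairing by replicate number, in lot 12 either, and the replicate block was an alternative applied to every lot.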

Additional observations from a re-analysis of the deposited data

Results flagged for a closer look

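Single libraries or lines stood apart from the rest of their group in 9 of 80 groups of 4 or 5 values. The rule flags about 1 in 20 groups of independent, normally distributed values. Low counts, and genes chosen with earlier results known, need not follow that rate, so no excess over chance is read from it. Among the 5 female lines, Mmp2 was at 39.7 CPM in lot 8, against 4.08 to 8.22 CPM in the others, and Mmp3 was at 42.9 CPM in lot 6, against 0.111 to 10.9 CPM. Among the 5 male lines, lot 12 stood above the others for Mmp14, at 83.8 CPM against 27.4 to 40.1 CPM, and for Timp3, at 98.6 CPM against 20.5 to 27.7 CPM. Within lines, lot 7 replicate 4 was the high library for Mmp14 in the female line (77.0 CPM, others 43.4 to 47.0 CPM) and for Adamts1 in the male line (13.4 CPM, others 6.27 to 6.61 CPM). Mmp13 had 1.34 CPM in lot 7 female replicate 3 and no count in the other 3. Timp2 had 449 CPM in lot 11 male replicate 1, against 365 to 376 CPM, and Timp3 had 5.05 CPM in lot 8 female replicate 1, against 12.1 to 12.8 CPM.

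The female over male difference itself differed among lots for 8 genes, measured against the spread between libraries of a line only. The adjusted p was 0.00902 for Mmp11, 3.74e-07 for Timp3, 0.000549 for Timp2, 1.36e-05 for Mmp14, 0.000176 for Adamts1, 0.000212 for Mmp2, 3.51e-05 for Mmp3 and 2.06e-08 for Timp1.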

How the results depend on the processing

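Of 1525 single-gene values under alternatives, 1494 kept their side of the threshold, 25 newly passed and 6 no longer passed. Of 715 fold changes among them, 34 changed sign, 0 of these past the threshold before or after. All 6 losses were in lot 7 (Mmp14, Timp2 and Adamts1, given with the results). Across lots, genes called numbered 60 in DESeq2, 491 in limma voom, 3 without a filter and 1 without the lot block, and voom called 1 of the 9 genes. In lot 12, 2 of the 9 genes passed without a filter and with the replicate block, and 1 to 2 when single libraries were left out; the block also called Mmp2 in lot 7, Mmp19 among female lines, and Mmp3 and Mmp19 among male lines. Genes called in lot 12 numbered 463, 106 with the libraries of that lot alone, and 228 to 731 when single libraries were left out. Without replicate 4, lot 7 gave 878 called genes, against 1319. Among male lines, 7 of the 9 genes passed without a filter. The cause of these shifts was not tested. Outside lot 12, residual correlations of same-numbered libraries ran between −0.118 and 0.302, with 8 of 15 pairs over 0.1, against 2 of 42 pairs of unlike number; a weaker pairing there was not tested beyond the block. Depth limits Mmp3, Mmp13 and Mmp19, whose counts were at or under the floor in many libraries.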
